A study of Mus musculus with 10 samples.

Results

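The genes described here form the core of the p53 and Bcl2 machinery of cell death: Trp53, Mdm2, Cdkn1a, Bax, Bak1, Bcl2l1, Mcl1, Bid, Bbc3 and Aen. They were chosen by name, and all 10 were present among the 24411 genes of each table. Each of the 10 libraries was made from 10 morulae of ICR mice (the strain is labelled in replicates 1 and 2 of each group only), obtained by in vitro fertilization and grown in KSOM medium to 72 h after insemination. Between 3 and 6 h after insemination the zygotes received an antisense oligonucleotide (ASO), which was either non-targeting (ASO-Control, 5 libraries) or directed against Mettl3 (Mettl3-ASO, 5 libraries), so injection itself was common to both groups. Replicates 3 to 5 of each group carry a batch 2 label; replicates 1 and 2 carry none and are termed untagged. Whether the pools stem from different fertilizations is not labelled, and p-values therefore cover only pool-to-pool spread, which may be technical.

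The protein p53, encoded by Trp53, is a transcription factor that is held low by the ubiquitin ligase Mdm2 and rises after DNA damage or other stress. It then switches on genes that stop the cell cycle, such as Cdkn1a, or that kill the cell, such as Bbc3 and Bax. Proteins of the Bcl2 family decide whether the outer mitochondrial membrane is breached: Bax and Bak1 form the pore, Mcl1 and Bcl2l1 hold them in check, and BH3-only proteins such as Bid and Bbc3 relieve that check. Embryos that lack Mcl1 are known to die around implantation, and those that lack Mdm2 die early unless Trp53 is also lost.

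Depth was 9905830 to 13530284 expected counts in the 4 untagged libraries, and the 6 of batch 2 had 21412857 to 32327283. The targeted transcript was checked first. Mettl3 lay between 6.58 and 12.68 FPKM (fragments scaled for transcript length and library size) in ASO-Control and at 0.00 to 0.04 FPKM in Mettl3-ASO (two-sided exact permutation p = 0.0167, the smallest that 120 relabellings within batches allow). Mettl3-ASO replicate 1 stood nearest to the controls, with correlations of log counts scaled by library size to them of 0.882 to 0.899, against 0.806 to 0.888 for the other Mettl3-ASO libraries. Of 14 markers of the outer and inner lineages of the morula, 13 averaged at least 1 FPKM, and their sum spanned 394 to 1246 FPKM in ASO-Control and 398 to 1126 in Mettl3-ASO. Within these similar sums 5 of the 13 fell (Cdx2, Gata3, Krt8, Krt18 and Pou5f1; Krt18 the most, by 2.71 on the log2 scale) and 4 rose (Nanog, Sall4, Klf4 and Fgf4; Fgf4 the most, by 3.31). Markers of the 2-cell stage summed to 3.28 to 16.4 FPKM in ASO-Control and 1021 to 3759 in Mettl3-ASO, and all 9 rose. Among 13 markers of cumulus and granulosa cells, Has2, Amh, Cyp19a1 and Inhba were listed at 0 in every library and only Amhr2 and Nr5a2 averaged at least 1 FPKM. The 13 together summed to 18.2 to 25.5 FPKM in ASO-Control and 36.6 to 50.7 in Mettl3-ASO. Most of this sum was Nr5a2, with means of 17.6 FPKM in ASO-Control and 38.8 in Mettl3-ASO, followed by Amhr2 at 2.58 and 4.68. Star came next, at only 0.224 and 0.254 FPKM. The sum therefore follows Nr5a2 and Amhr2 and does not speak for the list as a whole. Among 7 markers of blood and stroma 3 averaged at least 1 FPKM, and the 7 summed to 44.9 to 70.7 FPKM in ASO-Control and 31.0 to 63.8 in Mettl3-ASO. The part of these shifts in the results below was not tested. In pools of whole embryos, fewer cells of a kind and less RNA per cell cannot be told apart.

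Across the machinery, 1 pore gene fell, 1 survival gene rose and most other members did not pass the test. Of the 10 genes, 9 averaged at least 1 FPKM over the 10 libraries and were tested; Bak1 did not. Calls rest on an adjusted p below 0.05 (edgeR quasi-likelihood, Benjamini-Hochberg over all 9522 tested genes). Mcl1 and Aen rose, Bax fell, and Trp53, Mdm2, Cdkn1a, Bcl2l1, Bid and Bbc3 were not called. These 3 of 9 (33.3%) stand beside 49.4% called among all tested genes, with 25.4% called higher and 24.0% lower. In batch 2 alone Mcl1, Aen and Bax were called, beside 39.0% of tested genes, and in the untagged libraries alone none of the 9 was, beside 6.26%. Blocking on replicate number instead of batch, 4 were called, Cdkn1a being the addition (adjusted p = 0.0433), beside 55.1%. The median log2 fold change of the 9 was −0.05 (−0.16 in batch 2, 0.19 untagged, −0.11 without Mettl3-ASO replicate 1), beside 0.01 for all tested genes. Every log2 fold change here is of Mettl3-ASO over ASO-Control, with ± for its standard error (SE).

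Sequences before a transcript start are shown for Bax and Mcl1, the pair that moved apart, and for Mdm2, the regulator of p53. Each window is the 250 bases before a RefSeq start (GRCm38.p6), 5′ to 3′ on the gene's strand, and capitals mark matches to the p53 half-site consensus, which reads the same on both strands. The windows are Bax at chr7:45466899-45467148 (minus strand), Mcl1 at chr3:95658471-95658720 (plus strand) and Mdm2 at chr10:117710759-117711008 (minus strand). None overlaps an exon annotated in GENCODE M21. The gene spans given below are RefSeq's and cover all its transcripts: the Mcl1 window lies inside that span, downstream of its first base, and the end of the Bax window nearest the gene lies just inside it.
Bax: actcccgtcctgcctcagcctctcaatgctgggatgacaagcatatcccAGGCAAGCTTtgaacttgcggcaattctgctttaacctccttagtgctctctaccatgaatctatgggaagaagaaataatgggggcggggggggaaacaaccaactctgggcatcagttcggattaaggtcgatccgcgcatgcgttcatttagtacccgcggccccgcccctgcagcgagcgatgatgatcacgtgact
Mcl1: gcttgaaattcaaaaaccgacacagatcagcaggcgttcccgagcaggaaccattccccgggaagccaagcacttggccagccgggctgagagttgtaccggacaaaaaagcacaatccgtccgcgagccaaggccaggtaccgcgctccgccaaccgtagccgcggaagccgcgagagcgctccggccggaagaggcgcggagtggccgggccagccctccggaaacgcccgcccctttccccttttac
Mdm2: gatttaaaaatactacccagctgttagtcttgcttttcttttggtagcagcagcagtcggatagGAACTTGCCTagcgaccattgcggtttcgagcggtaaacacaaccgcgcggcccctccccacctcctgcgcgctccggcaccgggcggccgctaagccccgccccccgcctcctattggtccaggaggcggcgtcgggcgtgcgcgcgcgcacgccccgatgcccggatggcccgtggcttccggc
The Bax match begins 201 bases before the start and the Mdm2 match 186 bases before it, while the Mcl1 window holds none.

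Over the 16 RefSeq windows of the 10 genes, 5 windows (31.25%) held a half-site. The share was 7.13% of all 32851 windows of this length and 5.89% of the 9140 windows of tested genes. The 10 genes were chosen by name with known p53 targets among them, and some of their windows overlap. The higher share is therefore a description only. The remaining windows with a match belong to 3 genes. Aen had GGGCTTGTCC beginning 121 bases before one of its starts, and Trp53 had GGACTTGCCC 75 bases before its start. Cdkn1a, the classical p53 target, had 2 separate matches in one window, which do not adjoin. They were GGACTAGCTT at 73 bases and GAACATGTCT at 51 bases before the more upstream of its starts. The window of its downstream start, chr17:29093519-29093768, held none. These letters are a description of the windows and not evidence of binding. Sites of p53 in introns, or farther upstream than the windows reach, would not be seen.

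Levels of the 10 genes differed widely. In ASO-Control, Bax was highest at 256 ± 25.1 FPKM (SD, n = 5), above 92.9% of tested genes. Cdkn1a followed at 84.9 ± 39.0 (SD, n = 5), then Trp53 at 40.9 ± 3.96, Mcl1 at 33.5 ± 9.56, Mdm2 at 26.6 ± 8.28, Aen at 15.5 ± 6.73 and Bid at 8.58 ± 1.19 FPKM. Bcl2l1 at 1.92 ± 0.904, Bbc3 at 1.45 ± 1.04 and Bak1 at 0.146 ± 0.0439 FPKM were lowest. The ranges of neighbours in this order overlapped from Cdkn1a down to Bid and between Bcl2l1 and Bbc3. Bax stood clear of Cdkn1a, Bid of Bcl2l1, and Bbc3 of Bak1. In Mettl3-ASO the order changed at 1 place: Mcl1 moved from the fourth rank to the second, ahead of Cdkn1a and Trp53. There its range lay within that of Cdkn1a, so their order is within the spread.

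**Figure D1:**
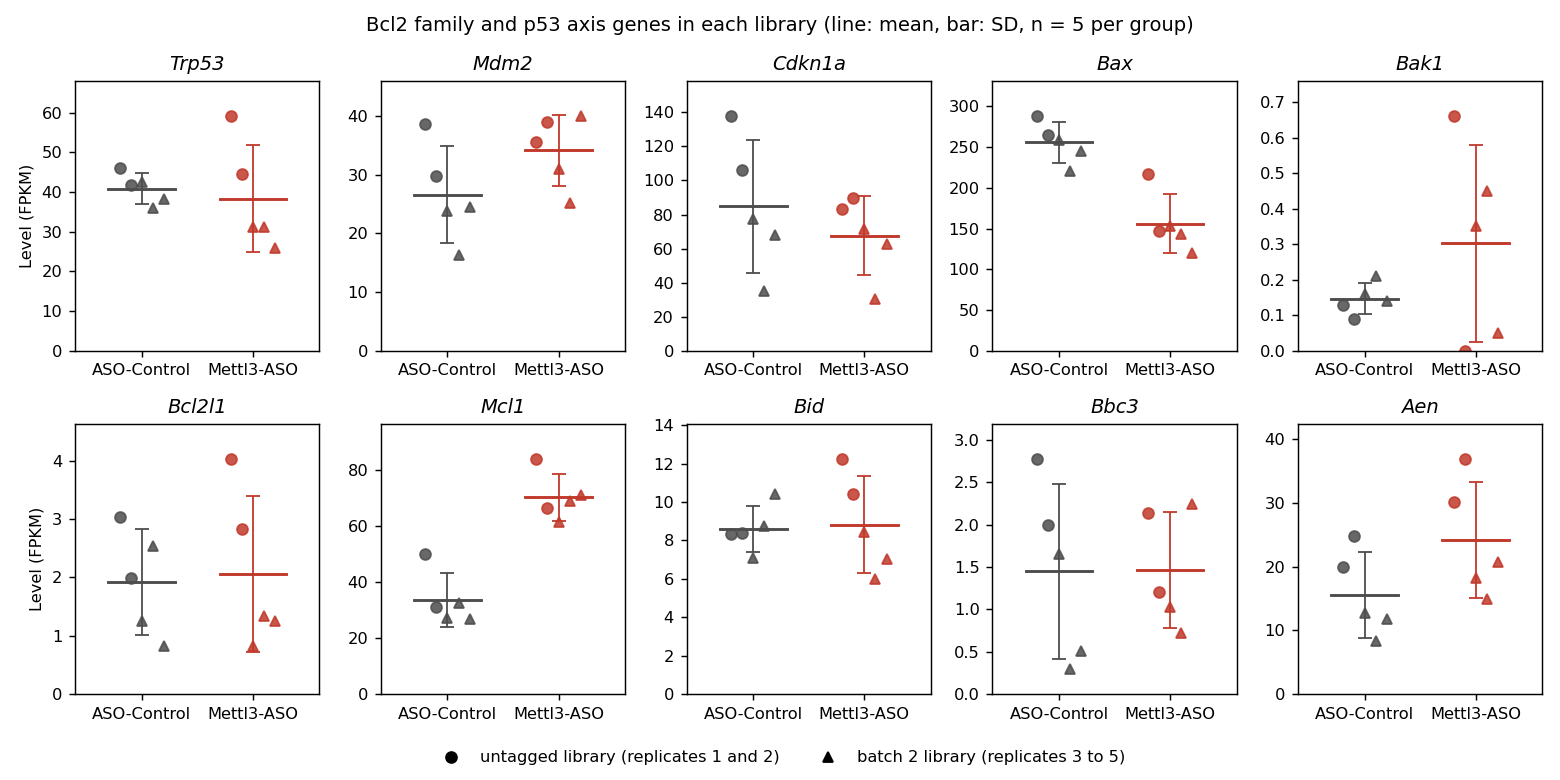
Level in FPKM (vertical axis, linear from 0) of each of the 10 genes in the 5 ASO-Control and 5 Mettl3-ASO libraries. Circles are untagged libraries, triangles batch 2, the line is the mean and the bar the SD; Mcl1 is higher and Bax lower in every Mettl3-ASO library than in any control, while the other genes overlap.

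Trp53 RNA was not called. Its levels were 46.2, 41.7, 42.5, 35.9 and 38.3 FPKM in ASO-Control replicates 1 to 5 and 59.2, 44.5, 31.3, 31.1 and 25.9 FPKM in Mettl3-ASO replicates 1 to 5. The Mettl3-ASO libraries thus lay on both sides of the controls, the untagged ones above most of them and those of batch 2 below all of them. The pooled log2 fold change was −0.19 ± 0.15 (adjusted p = 0.306), with a 95% interval of −0.54 to 0.16. It was −0.43 ± 0.17 in batch 2 (adjusted p = 0.0645) and 0.19 ± 0.23 in the untagged libraries (adjusted p = 0.635). The interaction of group and batch, which tests whether these values differ, had an unadjusted p of 0.0298 for Trp53. No tested gene passed that interaction test in edgeR after adjustment, and 159 (1.67%) had an unadjusted p under 0.05, Trp53 alone among the 9. Spread between libraries was wider in Mettl3-ASO, with a coefficient of variation of 35.1% against 9.69% in ASO-Control. On GRCm38 the gene lies on chromosome 11 at 69580348 to 69591873, and 3.64% of its 50-base windows also occur in the pseudogene Trp53-ps.

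Mdm2, the ligase that marks p53 for destruction and is itself a p53 target, was not called. The control libraries held 38.6, 29.8, 23.8, 16.2 and 24.5 FPKM and the Mettl3-ASO libraries 35.5, 39.0, 31.0, 25.2 and 40.0 FPKM in replicate order. All 3 batch 2 libraries of Mettl3-ASO were above the 3 controls of that batch, whereas the untagged libraries overlapped. The log2 fold change was 0.34 ± 0.18 (adjusted p = 0.135; 95% interval −0.09 to 0.77), from 0.53 ± 0.23 in batch 2 (adjusted p = 0.0907) and 0.09 ± 0.25 in the untagged libraries. The adjusted p stayed above 0.05 in each of 20 alternative analyses, so Mdm2 was called in none of them. The gene spans 117688875 to 117710758 on chromosome 10.

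Cdkn1a encodes p21, the inhibitor of cyclin-dependent kinases through which p53 arrests the cell cycle. Its levels were 138, 106, 77.3, 35.2 and 67.7 FPKM in ASO-Control replicates 1 to 5 and 83.5, 89.8, 71.4, 30.5 and 62.9 FPKM in Mettl3-ASO. The ranges of the groups overlapped, and the highest library was 3.92 times the lowest within ASO-Control. Each Mettl3-ASO library was below the control of the same number, but whether same-numbered libraries belong together is not labelled. The share of all tested genes that run this way was not counted. The log2 fold change of Cdkn1a was −0.32 ± 0.25 (adjusted p = 0.321, 95% interval −0.92 to 0.28), with −0.16 ± 0.35 in batch 2 and −0.52 ± 0.24 in the untagged libraries (adjusted p = 0.218). With a block on replicate number instead of batch it was −0.32 ± 0.12 (adjusted p = 0.0433), a call that rests on taking same-numbered libraries together. The gene lies on chromosome 17 at 29090979 to 29100722, and an annotated transcript on the opposite strand, AC167363.2, covers 7.68% of its exon bases, so reads of the overlap could belong to either.

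Aen, a nuclease induced by p53 that degrades DNA in dying cells, rose 1.52-fold. Levels were 19.9, 24.9, 12.8, 8.27 and 11.7 FPKM in ASO-Control and 30.1, 36.8, 18.1, 14.9 and 20.7 FPKM in Mettl3-ASO. The groups overlapped over all libraries but not within either batch, where each Mettl3-ASO library was above each control. The log2 fold change was 0.60 ± 0.18 (adjusted p = 0.0131), with 0.66 ± 0.23 in batch 2 (adjusted p = 0.0436) and 0.54 ± 0.29 in the untagged libraries (adjusted p = 0.281). Without a batch term the adjusted p was 0.0873. The gene is on chromosome 7 at 78895927 to 78911209.

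Bax, which forms pores in the outer mitochondrial membrane, fell 1.70-fold. ASO-Control replicates 1 to 5 held 288, 265, 259, 219.98 and 246 FPKM, and Mettl3-ASO replicates 1 to 5 held 217.5, 146, 153, 144 and 119.9 FPKM. The groups did not overlap, as in 25.6% of all tested genes, but Mettl3-ASO replicate 1 lay only just below the lowest control, and the other 4 libraries were well apart. Its log2 fold change was −0.77 ± 0.12 (adjusted p = 1.99e-04), with −0.83 ± 0.15 in batch 2 (adjusted p = 0.00198), −0.66 ± 0.23 in the untagged libraries (adjusted p = 0.127) and −0.83 without Mettl3-ASO replicate 1. The gene lies on chromosome 7 at 45461695 to 45466903, and 12.2% of its exon bases are shared with the annotated transcript Gm45808 on the same strand.

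Bak1, the second pore former, was close to absent. Expected counts were 3, 2, 8, 12 and 8 in ASO-Control replicates 1 to 5 and 16, 0, 17, 21 and 2 in Mettl3-ASO replicates 1 to 5. Mettl3-ASO libraries held both the highest values and the lowest, and the 0 in replicate 2 allows up to 0.303 CPM (counts scaled by library size) at 3 counts. No level passed 0.66 FPKM, and without a filter on level the log2 fold change was 0.90 ± 0.90 (adjusted p = 0.496). Exons of Ggnbp1 on the opposite strand cover 25.5% of the exon bases of Bak1 (chromosome 17, 27019812 to 27028627).

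Mcl1, a short-lived guardian that binds and restrains Bak1 and Bax, rose 2.06-fold. Levels were 49.98, 31.0, 27.2, 32.5 and 26.6 FPKM in ASO-Control replicates 1 to 5 and 83.7, 66.2, 61.2, 68.9 and 70.9 FPKM in Mettl3-ASO. Every Mettl3-ASO library was above every control, as in 15.0% of tested genes, and ASO-Control replicate 1 was high within its group. The log2 fold change was 1.04 ± 0.14 (adjusted p = 6.52e-05), with 1.19 ± 0.14 in batch 2 (adjusted p = 1.95e-04) and 0.84 ± 0.27 in the untagged libraries (adjusted p = 0.110). No other annotated exon overlaps the gene (chromosome 3, 95656944 to 95663179), and none of its 50-base windows occurs in another gene.

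Bcl2l1, which encodes the survival protein Bcl-xL, was low and was not called. Its FPKM values were 3.03, 1.98, 1.25, 2.53 and 0.82 in ASO-Control and 4.02, 2.82, 0.82, 1.34 and 1.25 in Mettl3-ASO. Each library held 52 to 178 counts, and the groups overlapped over their whole range. Its log2 fold change was −0.11 ± 0.34 (adjusted p = 0.808), with a 95% interval of −0.90 to 0.69. Batch 2 gave −0.43 ± 0.47, the untagged libraries 0.40 ± 0.46. The gene lies on chromosome 2 at 152758732 to 152833803.

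The ratio of Mcl1 to Bax FPKM, chosen after the values were seen and therefore a description, was 0.105 to 0.174 in ASO-Control (median 0.117) and 0.385 to 0.592 in Mettl3-ASO (median 0.452). The lowest Mettl3-ASO library was replicate 1 at 0.385, above the highest control. This had to follow, since Mcl1 was higher and Bax lower in every Mettl3-ASO library than in any control. The separation of the ratio thus adds nothing to either result. RNA levels say nothing of the proteins, whose turnover differs.

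Among the BH3-only genes, Bid, which links death receptors to mitochondria once cut by caspases, was not called. It ranged from 7.09 to 10.4 FPKM in ASO-Control (median 8.37) and from 5.97 to 12.2 in Mettl3-ASO (median 8.45). The log2 fold change was −0.05 ± 0.20 (adjusted p = 0.845; 95% interval −0.53 to 0.43), with −0.32 ± 0.25 in batch 2 and 0.39 ± 0.32 in the untagged libraries. Bid (chromosome 6, 120893119 to 120917062) shares 17.7% of its annotated exon bases with Bcl2l13 on the opposite strand, a gene that rose; strand use in counting is not stated in the sources available, so shared reads could belong to either.

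Bbc3, which encodes the p53-induced killer Puma, was low and uneven. Values were 2.77, 2.00, 1.65, 0.30 and 0.51 FPKM in ASO-Control and 2.14, 1.20, 1.03, 0.72 and 2.24 FPKM in Mettl3-ASO, from 17 to 84 counts each. The highest control was 9.23 times the lowest, and the groups overlapped. Its log2 fold change was 0.17 ± 0.51 (adjusted p = 0.802; 95% interval −1.04 to 1.38), with 0.67 ± 0.68 in batch 2, against −0.57 ± 0.58 in the untagged libraries. The gene is on chromosome 7 at 16308398 to 16318334.

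**Figure D2:**
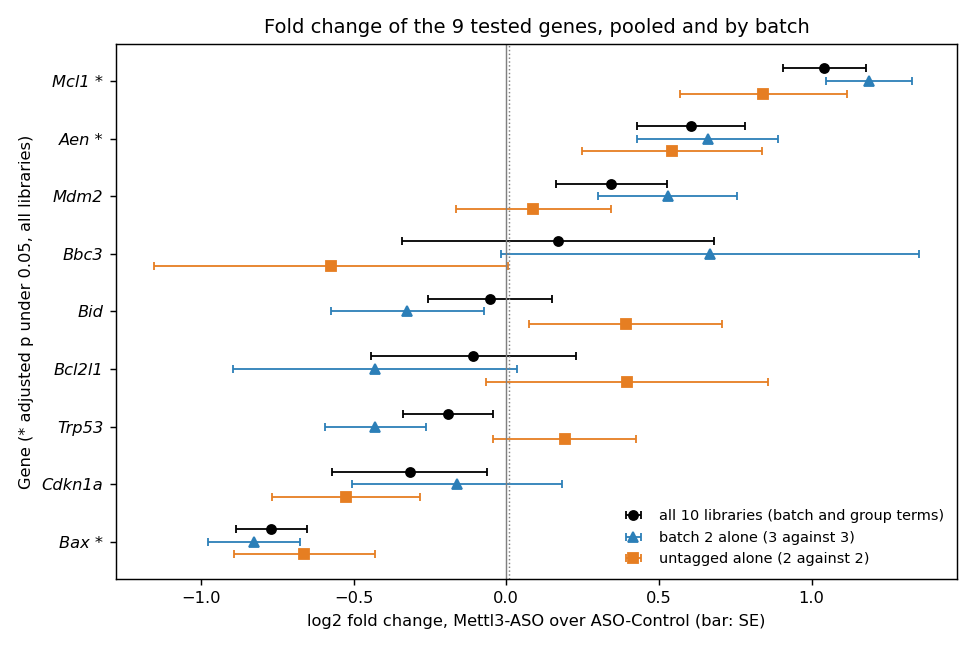
log2 fold change of Mettl3-ASO over ASO-Control (horizontal axis, bars are SE) for the 9 tested genes from all libraries (black), batch 2 alone (blue) and the untagged libraries alone (orange); the dotted line is the median of all tested genes. Mcl1 and Aen lie to the right and Bax to the left in all 3 fits, while Trp53, Bid, Bcl2l1 and Bbc3 change sign between batches.

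Several p53 targets varied between libraries in a shared way that crossed the groups. Mdm2, Cdkn1a, Bbc3 and Aen all had their lowest control value in ASO-Control replicate 4, and all had their lowest Mettl3-ASO value in Mettl3-ASO replicate 4. Bax, also a p53 target, was lowest among controls in replicate 4 but lowest among Mettl3-ASO libraries in replicate 5. In the wider list of p53 targets given below, 19 of 36 tested genes were lowest among controls in replicate 4, and 18 of 36 were lowest among Mettl3-ASO libraries in replicate 4. Over all tested genes these shares were 20.9% and 15.8%. Trp53 RNA itself was 35.9 FPKM in ASO-Control replicate 4, its lowest control value, but was not at its lowest in Mettl3-ASO replicate 4, at 31.1 FPKM. All 4 genes also averaged lower in the batch 2 controls than in the untagged controls, as did 69.6% of all tested genes. This pattern was noticed in the data and is given with no test.

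**Figure D3:**
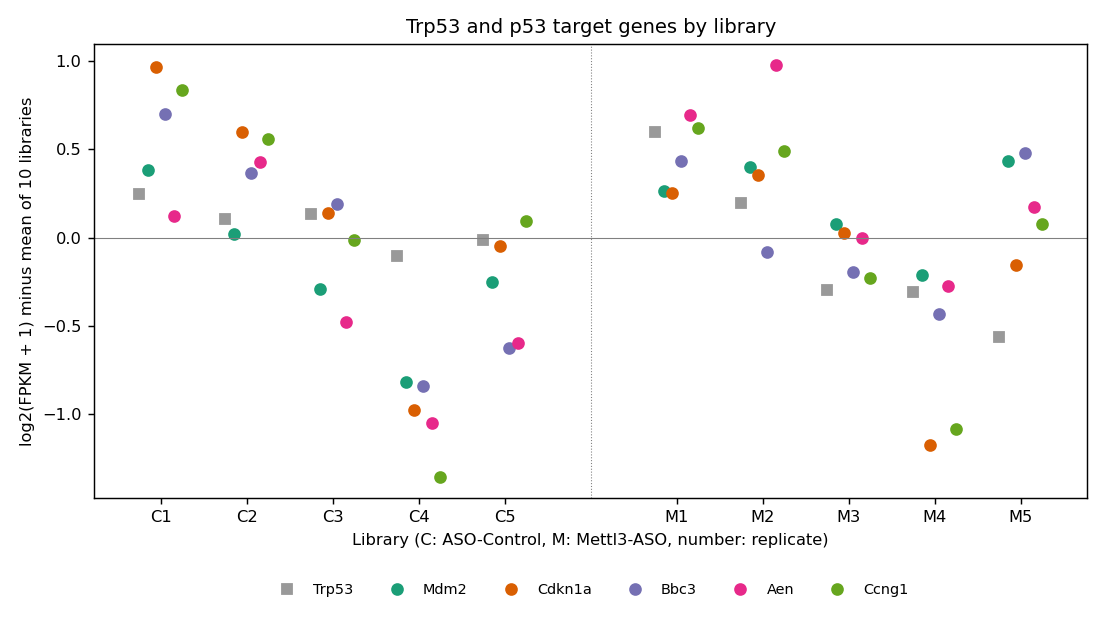
log2(FPKM + 1) minus its mean over the 10 libraries (vertical axis) for Trp53 (squares) and the p53 targets Mdm2, Cdkn1a, Bbc3, Aen and Ccng1 (circles) in each ASO-Control (C) and Mettl3-ASO (M) library. Within each group the lowest value of each of the 5 plotted targets is in replicate 4 (Bax, not plotted, is lowest in Mettl3-ASO replicate 5); Trp53 is at −0.11 in ASO-Control replicate 4 and −0.30 in Mettl3-ASO replicate 4, and is lowest of all in Mettl3-ASO replicate 5.

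Likeness was measured as the root mean square difference of log2(FPKM + 1), centred on each gene's mean, over the 10 libraries. The tested gene nearest to Cdkn1a was Ccng1, at 0.22, followed by Slc26a2 and Cbs, both at 0.25, where Cdkn1a departs from its own mean by 0.62. Ccng1 held 107, 88.5, 59.2, 22.8 and 63.8 FPKM in ASO-Control and 92.5, 84.3, 50.9, 27.7 and 63.2 FPKM in Mettl3-ASO, lowest in replicate 4 of both groups. Nearest to Trp53 were Rrp1 at 0.11, Ptdss1 at 0.12 and Fth1 at 0.13, where Trp53 departs from its mean by 0.32.

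Isoform use could be followed only where transcript length varied. The transcript length that the deposited tables weight by isoform abundance was constant for Bax, Bak1, Mcl1, Bid and Bbc3, the same in all 10 libraries. A constant length would also follow from 1 annotated transcript, and the annotation release is not stated. For these genes it therefore says nothing of isoform use. For the other 5 the group ranges of the length overlapped, and the means differed by at most 1.07% (Bcl2l1). Ranges of length did not overlap in 2.61% of all tested genes and in 9.45% of the tested genes whose length varied. METTL3 methylates adenosine mostly within motifs such as GGACT. In the longest protein-coding GENCODE M21 transcript, sense strand only, Mcl1 held 8 GGACT motifs (2.34 per kilobase), Aen 6 (1.21), Bbc3 5 (2.76), Bax 3 (2.73) and Trp53 none. The median over 8831 tested genes with such a transcript was 1.02 per kilobase, with quartiles of 0.60 and 1.52. Above the upper quartile lay 6 of the 10 genes, namely Bax, which fell, Mcl1, which rose, the uncalled Bbc3, Cdkn1a (1.92) and Bid (1.83), and the untested Bak1 (1.68), and methylation itself was not measured.

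Other genes of the Bcl2 family are those that share its homology domains or its mitochondrial site. Of 19 listed, 10 were tested, of which 2 rose and 2 fell, with a median log2 fold change of −0.35 (40.0% called, beside 49.4% of all tested genes). Bcl2l14 (Bcl-G) rose 3.56-fold (adjusted p = 3.38e-05), with 40.8 ± 4.04 FPKM in ASO-Control and 148 ± 50.5 in Mettl3-ASO (SD, n = 5). Its Mettl3-ASO values ran from 92.9 in replicate 1 to 230.2 in replicate 2, all above the controls at 35.7 to 46.0 FPKM. Bcl2l13, a mitophagy receptor, rose 2.49-fold, with 2.53 ± 0.516 FPKM in ASO-Control and 6.37 ± 1.26 in Mettl3-ASO (SD, n = 5). Bcl2l15 fell 7.13-fold (adjusted p = 7.28e-05), with 9.05 ± 2.43 FPKM in ASO-Control and 1.06 ± 0.472 in Mettl3-ASO (SD, n = 5). Bnip3, a hypoxia-induced mitophagy receptor, fell 1.33-fold (adjusted p = 0.0204), a call lost on leaving out control 2, control 4 or Mettl3-ASO replicate 5 (adjusted p = 0.0811, 0.0535 and 0.0503) and with no batch term (0.0771).

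Classical death and survival genes of the family were mostly not called or scarce. For Bad the log2 fold change was −0.13 ± 0.16 (adjusted p = 0.503) at 83.2 ± 6.45 FPKM in ASO-Control, and the pore-forming relative Bok −0.12 ± 0.22 (adjusted p = 0.665). Among the BH3-only genes, Pmaip1 (Noxa) had −0.51 ± 0.30 (adjusted p = 0.177, or 0.0300 with no filter on level and 0.0127 with a replicate block) and Bcl2l11 (Bim) −0.54 ± 0.22 (adjusted p = 0.0549). Bcl2l11 passed without Mettl3-ASO replicate 2 or 5 (adjusted p = 0.00843 and 0.0345), in DESeq2 (0.037), with no filter (0.0305) and with a replicate block (0.0199). Bcl2 itself was at 0 to 0.10 FPKM in ASO-Control and 0 to 0.22 in Mettl3-ASO. Bcl2l2 (Bcl-w) was under the filter, with 0.51 to 0.76 FPKM in ASO-Control and 0.95 to 1.28 in Mettl3-ASO, ranges that do not overlap, as in 25.6% of tested genes; with no filter its log2 fold change was 0.69 ± 0.40 (adjusted p = 0.195).

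Regulators and partners of p53 moved in both directions. Of 22 tested genes of 28 listed, 3 rose and 5 fell (36.4% called, beside 49.4% of all tested genes, median log2 fold change −0.09). Trp53bp2, whose protein ASPP2 steers p53 towards death genes, fell 3.55-fold (adjusted p = 1.60e-04), with 10.1 ± 1.95 FPKM in ASO-Control and 3.11 ± 1.91 in Mettl3-ASO (SD, n = 5). Mettl3-ASO replicate 1 was at 6.51 and the other 4 libraries at 2.01 to 2.52 FPKM, against 8.24 to 12.5 in ASO-Control. Ep300, an acetyltransferase that activates p53, rose 1.92-fold. Rpl11 and Rpl5, ribosomal proteins that bind and inhibit Mdm2, fell 1.55-fold and 1.42-fold (adjusted p = 1.57e-04 and 0.00187; for Rpl5, 0.0778 with no batch term). Mdm4, the partner of Mdm2, had a fold change, in log2, of −0.36 ± 0.17 (adjusted p = 0.0853, or 0.0351 without Mettl3-ASO replicate 2 and 0.0486 with a replicate block).

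Among 36 tested p53 target genes of 40 listed, 8 rose and 1 fell, and 27 were not called. These 25% called stand below the 49.4% of all tested genes. The median log2 fold change was 0.19 (0.18 in batch 2, 0.21 untagged). Ddit4, an inhibitor of mTORC1 that also answers to other stresses, rose 6.92-fold (adjusted p = 1.14e-06), with 4.74 ± 1.32 FPKM in ASO-Control and 32.9 ± 4.82 in Mettl3-ASO (SD, n = 5). Its controls lay at 2.91 to 6.34 FPKM and its Mettl3-ASO libraries at 24.7 to 37.3 FPKM. Sertad1, Tigar and Ei24 rose 2.28-fold, 1.90-fold and 2.42-fold. Tigar, a brake on glycolysis, reached 124 to 175 FPKM against 57.1 to 116 in the controls. Ccng1, one of the most direct p53 targets, had a fold change, in log2, of −0.13 ± 0.27 (adjusted p = 0.708).

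In the executioner machinery, 2 mitochondrial death effectors and 2 inhibitors of apoptosis rose and 1 caspase gene fell. Of 16 tested genes of 21 listed, 4 rose and 1 fell (31.2% called, beside 49.4% of all tested genes, median log2 fold change 0.14). Endog, a mitochondrial nuclease, rose 3.59-fold, from 8.10 to 23.2 FPKM in ASO-Control to 47.9 to 55.2 in Mettl3-ASO (adjusted p = 3.44e-05). Aifm1, the apoptosis-inducing factor gene, rose 1.55-fold (adjusted p = 0.00204), and Birc3, an inhibitor of apoptosis, rose 1.68-fold (adjusted p = 0.00961). Its relative Birc2, named after its values were seen, rose by 0.58 on the log2 scale (adjusted p = 0.0182). Casp6, an effector caspase gene, fell 1.51-fold (adjusted p = 0.00304; 0.0878 with no batch term). The apoptosome gene Apaf1 had a fold change, in log2, of 0.64 ± 0.26 (adjusted p = 0.0583). Apaf1 passed in DESeq2 (0.0397), with no filter (0.0398), with a replicate block (0.0435), in batch 2 alone (0.0354) and on leaving out control 2 or Mettl3-ASO replicate 1 or 3 (0.0372, 0.0255 and 0.0365). Xiap, an inhibitor of caspases, had −0.16 ± 0.20 (adjusted p = 0.533), and Casp9 was under the filter at 0.41 to 1.82 FPKM in all libraries.

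The death receptor pathway was little expressed, with 7 of 14 listed genes tested, 1 rise and 1 fall (28.6% called, beside 49.4% of all tested genes). Mlkl, the effector of necroptosis, fell 3.37-fold (adjusted p = 0.00135), with 3.48 ± 0.848 FPKM in ASO-Control and 1.09 ± 0.448 in Mettl3-ASO (SD, n = 5). Ripk1, a kinase at the receptors, rose 1.69-fold at the edge of the threshold (adjusted p = 0.0443). That call was lost on leaving out any 1 control or Mettl3-ASO replicate 1, 3 or 5, with adjusted p up to 0.151. Fadd had a fold change, in log2, of 0.44 ± 0.21 (adjusted p = 0.102; 0.0492 without Mettl3-ASO replicate 2), and Traf2 one of −0.34 ± 0.20 (adjusted p = 0.193).

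**Figure D4:**
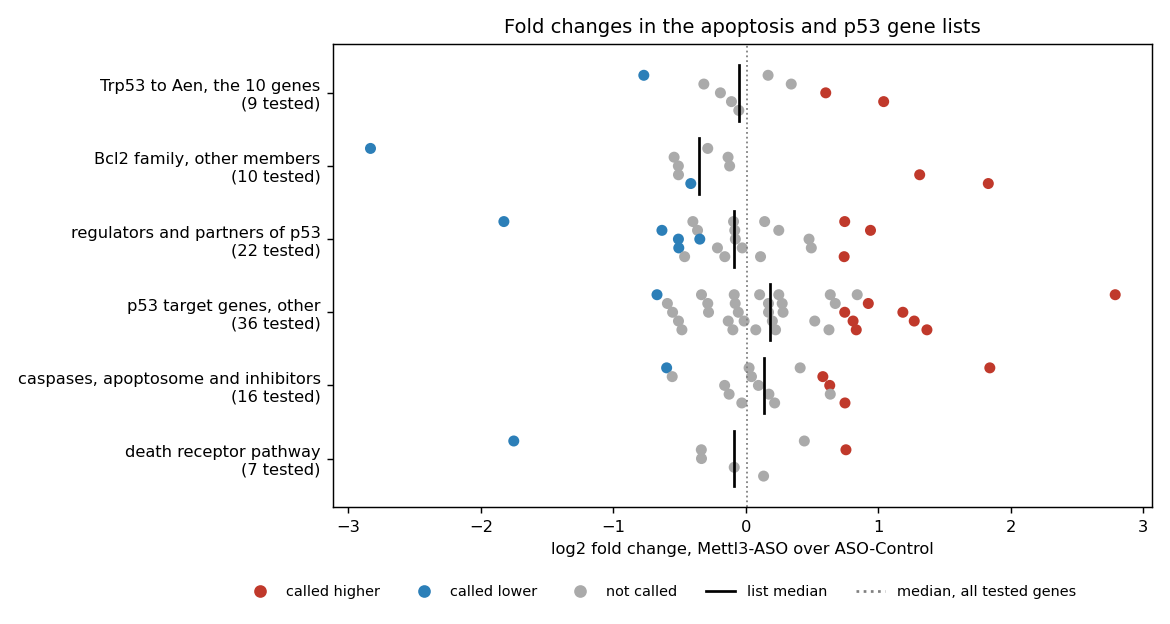
log2 fold change of Mettl3-ASO over ASO-Control (horizontal axis) of each tested gene in the 10 genes described and in the 5 lists of the wider pathway; red is called higher, blue called lower, grey not called, the black bar is the list median and the dotted line the median of all tested genes. Each list holds genes on both sides of 0, and the outermost are Bcl2l15 on the left and Ddit4 on the right.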

How the data were processed

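RNA of 10 libraries, each from pooled morulae, was read from expected counts, TPM, FPKM and abundance-weighted transcript lengths in deposited tables, whose columns are those RSEM writes, per the file headers. The submitters' processing notes name STAR 2.7.10, RSEM 1.3.3 and the build mm10; the sources used here give no options, strand use or annotation release. The authors' deposited length values are transcript bases per gene. TPM was read but tests no result. After rounding to whole numbers, expected counts entered edgeR 4.0.16 (R 4.3.3; quasi-likelihood, TMM scaling, terms for batch and group) over 9522 genes averaging 1 FPKM or more, with Benjamini-Hochberg adjustment. Intervals use the t distribution with 7 residual degrees of freedom. Intervals and floors cover the spread between these libraries or counting error only. Mettl3 was compared on log2(FPKM + 1) by an exact permutation within batches. The fits were tested on simulated data.

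The 10 genes, the 5 pathway lists and the marker lists were chosen with earlier results of these data known. Named from each list were the 4 tested genes with the smallest p and 12 genes chosen by role, of which 1 is not reported here; for Trp53 and Cdkn1a, also the 3 nearest genes. Alternatives were DESeq2 1.42.0, limma 3.58.1 on log2(FPKM + 1) and log2(FPKM + 0.1), other scaling and filters, no batch term, a replicate block, single batches and each library left out. Promoter windows are RefSeq's.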

Additional observations from a re-analysis of the deposited data

Results flagged for a closer look

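Among 84 groups of 5 libraries tested for a single library far from the rest (42 genes in both groups), 7 had one by Dixon's criterion, where chance gives about 1 in 20. Mcl1 was 49.98 FPKM in ASO-Control replicate 1, against 26.63 to 32.54 in the other controls. In Mettl3-ASO replicate 1, Trp53bp2 was 6.51 FPKM against 2.01 to 2.52 in the other Mettl3-ASO libraries. Casp9 was 1.82 FPKM in the same library against 0.41 to 0.65. Ep300 was 8.60 FPKM in Mettl3-ASO replicate 5 against 4.89 to 5.57. Ddit4 was 24.67 FPKM in Mettl3-ASO replicate 3 against 33.70 to 37.33. Fadd was 3.11 FPKM in ASO-Control replicate 2 against 2.31 to 2.54. Bcl2 was 0.10 FPKM in ASO-Control replicate 1 against 0.00 to 0.02.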

How the results depend on the processing

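Without a batch term, 1 member was called higher, and the untagged libraries alone gave 0 higher and 0 lower (edgeR), with 361 higher and 235 lower over all genes. Leaving out each library gave 2 members higher and 1 lower every time, 2162 to 2461 genes higher and 2022 to 2339 lower, and a Mettl3 difference of −3.32 to −3.11 on log2(FPKM + 1).

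Other Bcl2 family genes called higher were 1 at a mean FPKM of at least 5 and 0 in the untagged libraries; called lower were 5 with no filter, 1 with no batch term and 1 in the untagged libraries, and 1 to 4 with a library left out (2 higher each time). Regulators of p53 called higher were 1 at FPKM of at least 5 and 0 in the untagged libraries; called lower were 3 in both limma fits, 3 with no batch term and 0 in the untagged libraries, and 3 to 5 higher and 3 to 6 lower with a library left out. Of p53 targets, 3 were higher and 0 lower in the untagged libraries, 5 lower with no filter, and 7 to 9 higher and 0 to 3 lower with a library left out. Of the caspase list, 1 was higher and 0 lower in the untagged libraries, 3 lower with no filter, 0 lower with no batch term, and 3 to 5 higher and 1 lower with a library left out. Of the death receptor list, 3 were higher (Cyld, Tnfrsf1a and Cflar, all under the filter in the main fit) and 2 lower (Mlkl and Casp8) with no filter, where Ripk1 was not called. The list gave 0 and 0 at FPKM of at least 5 and in the untagged libraries, and 0 higher in both limma fits, with no batch term and in batch 2. With a library left out, 0 to 2 were higher and 1 lower.

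The replicate block gave 2 members lower (Bax and Cdkn1a, adjusted p = 0.0433), and 5 Bcl2 family genes, 8 regulators, 4 p53 targets and 2 caspase genes lower. It also called Pmaip1, Bcl2l11, Mdm4 and Apaf1 (adjusted p = 0.0127, 0.0199, 0.0486 and 0.0435). Deviations of same-numbered libraries correlated at 0.0832 to 0.252, and only replicate 5 fell under the 0.1 set as threshold. On that rule the numbers were not taken as pairs. All 10 of 10 libraries correlated best with their own number, but replicates 1 and 2 gave the same value, 0.252, so these are not 10 separate checks. Whether same-numbered libraries belong together is not labelled, so fits with batch and with the replicate block are both given.

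Signs turned, among the genes named, only for uncalled ones; with a library left out, Bcl2l1 ranged from −0.26 to 0.23, Bid from −0.13 to 0.0829, Bbc3 from −0.24 to 0.59, Ccng1 from −0.33 to 0.0169. Trp53 was 0.19 in the untagged libraries. Bcl2l1 was 0.0164 and 0.0034 in the limma fits, 0.013 with no batch term, 0.40 in the untagged libraries, 0.23 without ASO-Control replicate 4 and 0.0334 without Mettl3-ASO replicate 3. Bid was 0.0092 at FPKM of at least 5, 0.0043 and 0.0013 in limma, 0.39 in the untagged libraries, 0.0829 without ASO-Control replicate 5 and 0.0599 without Mettl3-ASO replicate 4. Bbc3 was −0.57 in the untagged libraries, −0.12 and −0.0323 without ASO-Control replicates 4 and 5 and −0.24 without Mettl3-ASO replicate 5. Bok was 0.0157 in the untagged libraries, 0.0507 without ASO-Control replicate 4 and 0.0063 without Mettl3-ASO replicate 5, Bad 0.0281 in the untagged libraries, and Ccng1 0.0126 without ASO-Control replicate 5 and 0.0169 without Mettl3-ASO replicate 4. With no filter the median of all genes moved to 0.18. Causes were not tested; the untagged fit has 4 libraries. Bak1 had at most 21 counts in a library, and Bbc3 at most 84.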
